A study of Mus musculus with 56 samples.

Results

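The proteasome genes of mouse colon tumor cells are described here across 50 single cells. They were chosen by name: every row of the expression table whose Ensembl ID belonged, in the GENCODE M21 annotation, to a protein-coding gene with a symbol that starts with Psma, Psmb, Psmc, Psmd, Psme, Psmf or Psmg. This gave 50 genes of 24410 rows. The rule itself uses names and no expression value, but it was set with earlier results of these data known. Of these, 31 encode the constitutive subunits, with 14 in the core particle and 17 in the regulatory particle. The others are 3 immunoproteasome subunits, 2 core subunits known from single tissues, 3 rows of the activator PA28, the activators Psme3 and Psme4, the inhibitor Psmf1, 7 assembly chaperones and Psmc3ip. Psmc3ip met the rule by its spelling only, since its protein acts in meiotic recombination and is not part of the proteasome.

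The proteasome is the protease that degrades most short-lived and damaged proteins of a cell once they carry ubiquitin. Its core particle is a barrel of stacked alpha and beta rings with the active sites inside, and the regulatory particle at its ends binds ubiquitin, removes it, and unfolds the substrate with a ring of ATPases. In the immunoproteasome, which interferon induces and which leukocytes express without it, Psmb8, Psmb9 and Psmb10 take the places of the catalytic subunits Psmb5, Psmb6 and Psmb7, and more of the peptides made have ends that MHC class I molecules hold. The cell cycle also runs through the proteasome, which degrades cyclins.

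The cells came from 3 pooled colon tumors of 1 male ApcMin/+ mouse, which carries a truncating Apc allele that activates Wnt signaling, at 12 weeks of age. From 10 weeks of age it had drunk 2% dextran sulfate sodium, a polymer that damages the lining of the colon, for 5 days. Single cells were sorted as Epcam+ and Cd24+ and as negative for DAPI, Cd31 and Cd45, and Bead-seq libraries were kept only where the stem cell gene Lgr5 had been amplified from the cDNA by 32 cycles of PCR. The labels give a single group without a control. What follows therefore describes variation among cells of a single animal, n counts cells, and no p-value is given.

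Pearson's r between libraries was taken over the genes that reached 1 TPM (explained below) in at least 20% of libraries. It was 0.957 to 0.992 for 6 pairs of libraries, against at most 0.782 for any other pair. Each of these 6 pairs was averaged, which reduced the 56 deposited libraries to 50 cells. Whether such a pair holds 1 cell under both indexes or carry-over between indexes was not tested, so agreement within a pair is no independent repeat. Values are TPM, transcript abundances scaled by transcript length and to a fixed sum per library, so levels can be set side by side between genes, but read depth is unknown. A value of 0 is read only as listed at 0, since subunits that every cell uses were also at 0 in some cells. A gene counts as seen where it reached 1 TPM, and 9166 genes seen in at least 20% of cells are the genes tested below. Cells had a median of 5903 genes seen, and the lowest had 1316, with 85.1% of its TPM under a single gene, Gm10925. Within the 6 averaged pairs, a constitutive subunit differed between libraries by a median of 0.20 on the log2(TPM + 1) scale (0.10 to 0.34 over pairs), and 1 of 186 such values was seen in 1 library of a pair only. Leukocyte genes gave a summed median of 1.16 TPM (0 to 80.7) over 13 markers, of which 7, among them Ptprc, the gene of the sort marker Cd45, were seen in no cell. Of 9 endothelial and fibroblast markers 6 were seen in no cell, with a summed median of 0.01 TPM (0 to 13.3), and 9 epithelial genes with the sort genes summed to a median of 10195 TPM (2220 to 18620).

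The sequences that bear on the results are the ones that set how rows can be told apart and the promoters of the exchanged subunits. Psme2, a subunit of PA28, lies on chromosome 14, and Psme2b, an intronless copy, lies on chromosome 11. Their coding sequences were identical at 712 of 717 bases in the GENCODE M21 transcripts, with 5 substitutions and no gap, so most short reads cannot be assigned to either row. Bases 454 to 543 of the coding sequence, counted from the A of the start codon, hold 3 of the substitutions, here in capitals.
Psme2: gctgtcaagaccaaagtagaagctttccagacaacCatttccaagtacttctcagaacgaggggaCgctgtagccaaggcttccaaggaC
Psme2b: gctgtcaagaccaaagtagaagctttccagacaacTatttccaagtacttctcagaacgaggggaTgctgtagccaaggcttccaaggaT

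The promoter windows of 2 constitutive catalytic subunits and of the 2 immunoproteasome subunits that lie beside Tap1 are shown for the short motifs found in them. They are RefSeq windows of build GRCm38.p6, from 250 bases before to 50 after the RefSeq start. For Psmb8 and Psmb9 this start differs from the GENCODE M21 start used elsewhere here. Their 2 windows lie wholly inside the GENCODE spans of the genes and do not flank the GENCODE starts. Capitals mark the motif TGACNNNGC, the core of the antioxidant response element bound by NRF1 and NRF2, in Psmb5 (chr14:54617946-54618245, minus strand) and Psmb6 (chr11:70525107-70525406, plus strand). They mark TTCNNNGAA, the gamma-activated site, in Psmb8 (chr17:34197945-34198244, plus strand) and CCAAT, the box bound by NF-Y, read on the other strand in Psmb9 (chr17:34187281-34187580, minus strand).
Psmb5: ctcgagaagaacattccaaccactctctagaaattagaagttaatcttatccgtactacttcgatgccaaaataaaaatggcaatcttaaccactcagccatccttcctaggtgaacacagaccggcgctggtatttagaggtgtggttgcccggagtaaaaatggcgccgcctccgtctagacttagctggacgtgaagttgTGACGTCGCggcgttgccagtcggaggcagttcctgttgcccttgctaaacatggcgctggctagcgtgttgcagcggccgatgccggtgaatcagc
Psmb6: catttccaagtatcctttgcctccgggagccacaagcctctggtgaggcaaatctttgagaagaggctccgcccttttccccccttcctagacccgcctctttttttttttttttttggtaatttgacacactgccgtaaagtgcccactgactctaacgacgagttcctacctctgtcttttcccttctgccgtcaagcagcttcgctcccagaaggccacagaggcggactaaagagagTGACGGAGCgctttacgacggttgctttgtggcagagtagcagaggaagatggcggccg
Psmb8: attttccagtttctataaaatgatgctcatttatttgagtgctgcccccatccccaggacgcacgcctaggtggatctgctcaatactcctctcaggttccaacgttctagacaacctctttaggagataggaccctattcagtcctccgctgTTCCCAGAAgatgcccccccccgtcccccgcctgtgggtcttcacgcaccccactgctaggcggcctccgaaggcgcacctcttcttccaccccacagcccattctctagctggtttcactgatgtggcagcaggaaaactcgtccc
Psmb9: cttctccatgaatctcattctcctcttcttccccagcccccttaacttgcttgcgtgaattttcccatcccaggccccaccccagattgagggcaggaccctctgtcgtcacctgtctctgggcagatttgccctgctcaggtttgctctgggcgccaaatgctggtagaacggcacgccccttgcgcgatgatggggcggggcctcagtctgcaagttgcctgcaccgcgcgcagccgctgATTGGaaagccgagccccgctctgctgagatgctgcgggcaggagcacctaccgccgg

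RefSeq windows were matched by symbol for 42 of the 50 proteasome genes, in 45 windows. Searched on both strands, TGACNNNGC was in 13.3% of the proteasome windows (Psmb5, Psmb6, Psmc6, Psmd9, Psmd12 and Psme4) and in 12.4% of all 32851 windows. CCAAT was in 33.3% of the proteasome windows against 37.4% of all, and TTCNNNGAA in 6.67% against 8.30%. The core of the interferon-stimulated response element, a pair of GAAA with 2 bases between them, was in 5 windows (Psmb3, Psmd4, Psmd9, Psme1 and Psmg4), or 11.1%, against 3.44% of all. The E-box CACGTG, bound by MYC, was in 8.89% against 7.15%. In the proteasome windows, matches of different motifs overlapped in 0 places. These matches describe letters only.

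The constitutive subunits were abundant in nearly every cell. The median of their 31 median levels was 66.6 TPM, against 2.23 TPM for all genes tested, and all 31 lay above the median gene tested, at percentiles of 62.8 to 98.0. A cell held a median of 30 of the 31 subunits at 1 TPM or more, 23 cells held all 31, and 45 cells held at least 28. Their summed level had a median of 3768 TPM and ranged from 584 to 5320 TPM over 49 cells, and it was 6.90 TPM in the cell with the fewest genes, where 2 of the 31 were seen. The core particle genes had a median of 102 TPM (14 genes) and the regulatory particle genes 46.1 TPM (17 genes).

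**Figure D1:**
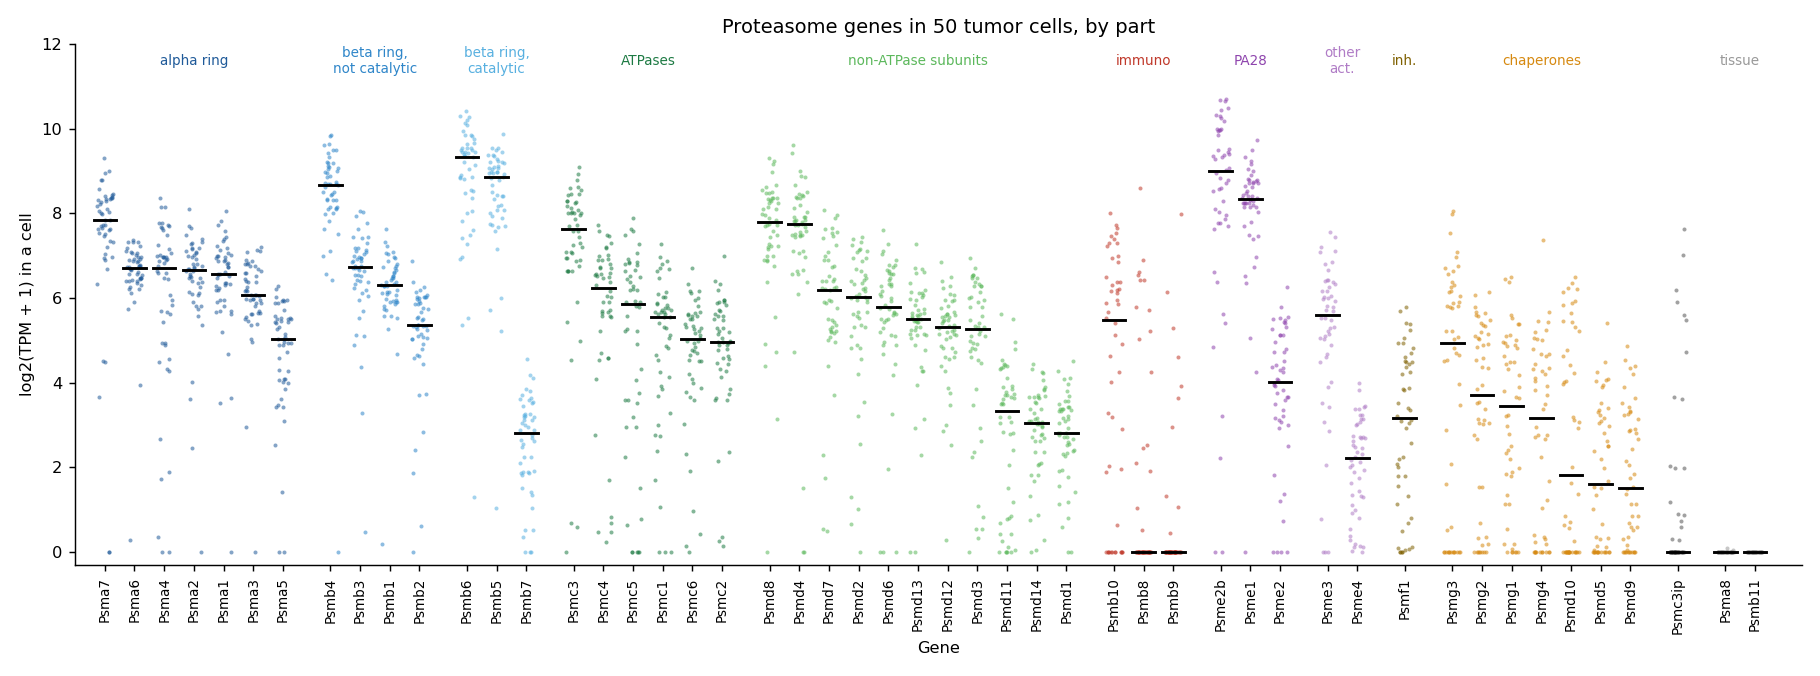
Level of each proteasome gene as log2(TPM + 1) (y axis) in 50 cells (points), by gene (x axis) and by structural part (colors), with the median as a black bar; "inh." is the inhibitor, "tissue" the 2 core subunits known from single tissues, and the unlabeled gray gene is Psmc3ip. Most constitutive subunits form a single band per gene, with Psmb6 at a median of 645 TPM and Psmd1 at 6.03 TPM, while Psmb8, Psmb9 and Psmb10 have many cells at 0.

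Among the alpha ring genes, which form the gated ends of the barrel, Psma7 was the highest with a median of 227 TPM (lowest 0, highest 629) and Psma5 the lowest with 31.7 TPM (0 to 77.0). The other 5 lay between, with Psma6 at 104 TPM, Psma4 at 103, Psma2 at 100.2, Psma1 at 94.1 and Psma3 at 66.6 TPM, which are close next to their spread over cells. The 7 alpha subunits enter the barrel in equal number.

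The beta ring, which holds the active sites, showed the widest range. Psmb6, the caspase-like subunit, had a median of 645 TPM (lowest 1.48, highest 1377), and Psmb5, the chymotrypsin-like subunit and the main target of bortezomib, had 461 TPM (1.05 to 945). Both were seen in all 50 cells. Psmb7, the trypsin-like subunit, had only 6.07 TPM (0 to 22.5) and was seen in 44 cells. Of the subunits without an active site, Psmb4 had 409 TPM, Psmb3 105 TPM, Psmb1 77.9 TPM and Psmb2 39.9 TPM.

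The level of Psmb5 is uncertain, because the microRNA gene Mir686 (chr14:54616677-54616785, 109 bases, GRCm38) lies within an exon of Psmb5 on the same strand and has a row of its own. That row had a median of 1748 TPM (0 to 3915) and followed Psmb5 over cells with a rho of 0.95, and how the reads of the shared bases were divided is not stated in the labels. Psmb7 overlaps the end of Nek6 on the other strand, which had a median of 1.34 TPM. Of the 50 proteasome genes, 15 overlap another gene of the table.

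The 6 ATPases of the regulatory particle, which unfold substrates, ran from 30.3 TPM for Psmc2 to 199 TPM for Psmc3, with Psmc4 at 74.8, Psmc5 at 56.7, Psmc1 at 46.1 and Psmc6 at 31.6 TPM. Of the 11 non-ATPase subunits, Psmd8 had 222 TPM and Psmd4, a ubiquitin receptor, 214 TPM. At the other end were the scaffold Psmd1 with 6.03 TPM, the deubiquitinase Psmd14 with 7.29 TPM and Psmd11 with 9.18 TPM, which was seen in 36 cells, the fewest of all constitutive subunits. Between them, Psmd7, Psmd2, Psmd6, Psmd13, Psmd12 and Psmd3 had medians of 72.6, 63.9, 54.4, 44.3, 38.6 and 37.4 TPM. Across the 31 genes, those with longer transcripts (766 to 3112 bases) had lower medians, with a rho of -0.42 over genes, against -0.28 over 8854 protein-coding genes tested. Genes are not replicates, and the part of length in the order was not tested.

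The spread of constitutive subunits over cells was lower than that of genes in the middle of their range of levels. The SD of log2(TPM + 1) had a median of 1.48 over the 31 genes (1.03 for Psmb1 to 2.40 for Psmc5). It was 1.90 over 721 genes with means within the quartiles of the subunit means. Subunits with the highest and lowest means lie outside those quartiles, so the comparison is matched for level only in part. Each SD includes the cell with the fewest genes. The mean of all 31 had a median of 5.87 on the log2 scale (3.35 to 6.54 in 49 cells), with an SD of 0.57 without the cell with the fewest genes.

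The assembly chaperones, the inhibitor and Psme4 were lower than most constitutive subunits and seen in fewer cells, while Psme3 was not. Of the assembly chaperones, which build the core (Psmg1 to Psmg4) and the base of the regulatory particle (Psmd5, Psmd9 and Psmd10), Psmg3 had the highest median, 29.5 TPM in 35 cells seen, and Psmd9 the lowest, 1.84 TPM in 29 cells. Psmg2 had 12.1, Psmg1 9.97, Psmg4 8.04, Psmd10 2.56 and Psmd5 2.07 TPM. The inhibitor Psmf1 had 8.03 TPM and was seen in 39 cells. Psme3, a nuclear activator, had 47.7 TPM in 46 cells, and Psme4, a large activator known for acetylated histones, 3.63 TPM in 38 cells. Psma8, the core subunit of spermatocytes, and Psmb11, that of the thymic cortex, reached 1 TPM in 0 of 50 cells. Psma8 was above 0 TPM in 2 cells, at 0.07 TPM or less. Psmc3ip was seen in 13 cells, at up to 198 TPM. With Psmb9, the 2 tissue-specific genes were the 3 of the 50 that fell short of 20% of cells, so 47 entered the relations over all genes tested.

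Both PA28 subunits, the activator that interferon induces, were abundant. Psme1 had a median of 324 TPM (0 to 853) and was seen in 49 cells. Psme2 had 15.2 TPM (0 to 75.6) and its copy Psme2b 509 TPM (0 to 1668), with a rho of 0.97 between the rows, and a median of 96.7% of their sum stood under Psme2b. Given the near-identity printed above, relations to other genes are given for the sum, which had a median of 520 TPM (0 to 1744). Over cells, the sum followed Psme1 with a rho of 0.25 and the constitutive mean with 0.36. With the interferon list the sum was near 0 (0.01), while Psme1 had 0.20. The sum had a rho of 0.43 with genes per cell. With genes per cell held constant, its values were 0.10 with the constitutive mean and 0.17 with Psme1.

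The 3 immunoproteasome genes were seen in unequal numbers of cells and only partly in the same ones. Psmb10 was seen in 37 cells, Psmb8 in 16 and Psmb9 in 9, and 9 cells held none of the 3, 24 held 1, 13 held 2 and 4 held all 3. Psmb10 had a median of 43.5 TPM (0 to 256) over all cells. Psmb8 had a median of 0 (0 to 390) and 43.96 TPM over the cells in which it was seen, and Psmb9 a median of 0 (0 to 254) and 14.2 TPM where seen. In the 6 averaged library pairs, which were picked for their likeness over widely seen genes, 7 of the 18 immunoproteasome values were seen in both libraries and the rest in neither.

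Against the subunits whose place they take, the 3 genes differed by site. Psmb8 had a median of 0 TPM (0 to 390) and Psmb5 461 TPM (1.05 to 945), so that Psmb8 made up 4.83% of the pair summed over 50 cells and was above Psmb5 in 0 cells. Psmb9 had a median of 0 TPM (0 to 254) and Psmb6 645 TPM (1.48 to 1377), a share of 1.39%, and Psmb9 was the higher in 1 cell, with 254 TPM against 40.5 TPM. Psmb10 had a median of 43.5 TPM (0 to 256) and Psmb7 6.07 TPM (0 to 22.5), a share of 90.5%, and Psmb10 was the higher in 34 cells. The trypsin-like site was thus the only one of the 3 where the immunoproteasome transcript exceeded the constitutive one in most cells. The share of Psmb8 carries the uncertainty of Psmb5 given above. TPM of single genes depend on the transcript models used, so such shares describe rows of the table and not subunits in particles.

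**Figure D2:**
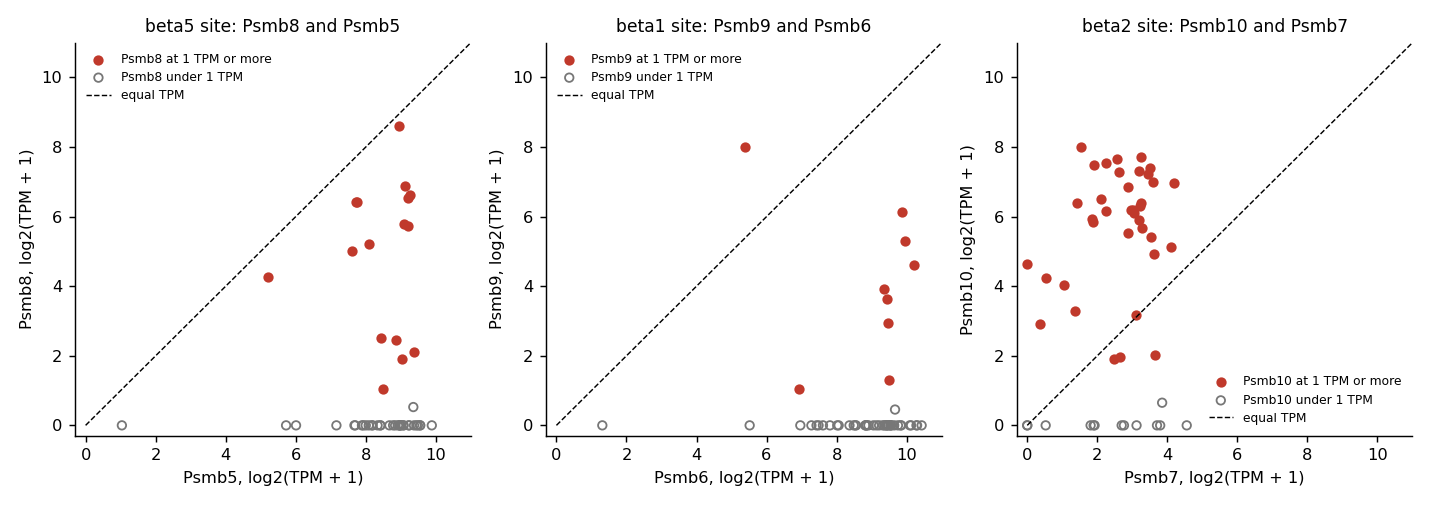
Each immunoproteasome gene (y axis) against the constitutive subunit whose place it takes (x axis), both as log2(TPM + 1), in 50 cells; filled points are cells in which the immunoproteasome gene was seen and the dashed line marks equal TPM. Psmb8 lies below the line in every cell and Psmb9 in all but 1, whereas Psmb10 lies above it in 34 cells.

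The cells that held Psmb8 and those that held Psmb9 were partly shared. Both were seen in 5 cells, which is 31.3% of the 16 with Psmb8 and 55.6% of the 9 with Psmb9, with a rho of 0.31 over 50 cells. In the 4 cells with all 3 genes, Psmb8 had 54.3, 92.0, 2.77 and 97.6 TPM, Psmb9 had 1.08, 23.5, 69.2 and 38.1 TPM, and Psmb10 had 57.0, 157, 177 and 6.47 TPM. Their levels were thus in no fixed order from cell to cell. The cell with the most Psmb8, 390 TPM, had 0 TPM of Psmb10, and over all cells Psmb10 had a rho of 0.05 with Psmb8 and -0.02 with Psmb9.

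Psmb9, Tap1, which encodes a subunit of the peptide transporter of class I loading, and Psmb8 lie side by side within the MHC region of chromosome 17. In GRCm38, Psmb9 spans chr17:34181987-34187764 on the minus strand, Tap1 chr17:34187553-34197225 on the plus strand, so that the genes overlap, with starts 211 bases apart, and Psmb8 begins 495 bases after Tap1. Tap1 was seen in 6 cells only and its partner Tap2 in 0 cells. Tap1 was seen in 1 of the 9 cells with Psmb9 (11.1%, and 16.7% of the 6 cells with Tap1) and likewise in 1 of the 16 with Psmb8 (6.25%). Without knowing whether the counting used strand, reads of the overlap cannot be told apart. Psmb10 lies elsewhere, on chromosome 8.

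Relations over cells are given as Spearman's rho on log2(TPM + 1), and a rho of 0.3 or more in size is counted as past. All values of a cell come from 1 library and share its depth and its scaling to a fixed sum, so these are descriptions. Class I molecules themselves were widely seen: H2-K1 had a median of 241 TPM and H2-D1 146 TPM, each in 49 cells, and the light chain B2m 54.4 TPM in 48 cells. Nlrc5, the activator of class I genes, was seen in 0 cells. The mean of 16 MHC class I genes, which include Tap1, had a rho of 0.40 with Psmb8, 0.35 with Psmb9 and -0.07 with Psmb10.

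Across index groups, which the labels give as i7 and i5 indexes of the libraries and not as dates, Psmb8 kept a positive rho with the class I mean. By i7 index it was 0.45 in N704 to N707 (32 cells) and 0.29 in N708 to N710 (18 cells), and by i5 index 0.24 in N502 to N505 (26 cells) and 0.56 in N506 to N517 (27 cells), where a pair averaged across both sets counts in each. Psmb9 had 0.49 and 0.01 in the i7 groups and 0.54 and 0.07 in the i5 groups, so it was near 0 in 2 of the 4. Among single class I genes, Psmb8 had its highest rho with H2-T23 (0.35) and H2-K1 (0.32), and Psmb9 with Tapbpl (0.33) and H2-K1 (0.30). Neither followed H2-D1 past 0.3 (-0.02 for Psmb8 and 0.15 for Psmb9).

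As a mean of 3, the immunoproteasome genes had a rho of 0.25 with the class I mean (Pearson's r 0.33, and 0.21 with the 2 most distant cells left out). The rho was 0.39 in i7 N704 to N707 and 0.00 in N708 to N710. The immunoproteasome mean had a rho of -0.15 with the leukocyte list, and 0.21 with 26 interferon response genes (0.20 for the constitutive mean). No part of leukocyte RNA in these values was tested beyond those markers. The constitutive mean had a rho of 0.24 with the class I mean, which was 0.09 with genes per cell held constant. Of the 31 constitutive subunits, 2 were past 0.3 with the class I mean (Psmc3 at 0.34 and Psmd3 at 0.32), or 6.45%, near the 5.54% of all genes tested, and 0 were past it without the cell with the fewest genes. None was past -0.3, against 0.578% of all genes. The ER proteins that assist loading, Calr, Canx and Pdia3, had rho of 0.01, 0.18 and -0.00 with the constitutive mean.

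The constitutive mean was higher, by rank, in cells with more cell cycle transcript. The mean of the 31 subunits had a rho of 0.64 with the mean of 54 G2/M genes and 0.53 with that of 43 S phase genes over 50 cells. With G2/M it was 0.61 and 0.64 in the i7 groups and 0.69 and 0.57 in the i5 groups. With S phase it was 0.53 and 0.34, and 0.71 and 0.34. The core mean had 0.52 with G2/M and 0.33 with S phase, and the regulatory mean 0.59 and 0.57.

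The relation was weaker on a linear measure of the same values. Pearson's r was 0.41 with G2/M and 0.38 with S phase (0.41 each without the 2 farthest cells). The cell with the highest constitutive mean, 6.54 on the log2 scale, also had the highest G2/M mean among the 3 highest cells, 5.51, while the next 2, at 6.51 and 6.43, had G2/M means of 1.37 and 2.31. The cell with the fewest genes was lowest in both, at 0.24 for the constitutive mean and 0.15 for G2/M.

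The number of genes seen in a cell moved with the same values. The constitutive mean had a rho of 0.69 with genes per cell, and 0.64 with the mean of all genes tested. That mean of all genes had itself a rho of 0.48 with G2/M and 0.52 with S phase. With genes per cell held constant, the constitutive mean kept a partial rho of 0.37 with G2/M and 0.16 with S phase. A complex unrelated to degradation, the cytosolic chaperonin (7 genes), had 0.55 with G2/M and 0.38 with S phase without that adjustment. It had 0.68 with the constitutive mean. With genes per cell held constant, the chaperonin had 0.33 with G2/M, 0.04 with S phase and 0.49 with the constitutive mean. Read depth is unknown, and its part in the relation was not tested.

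**Figure D3:**
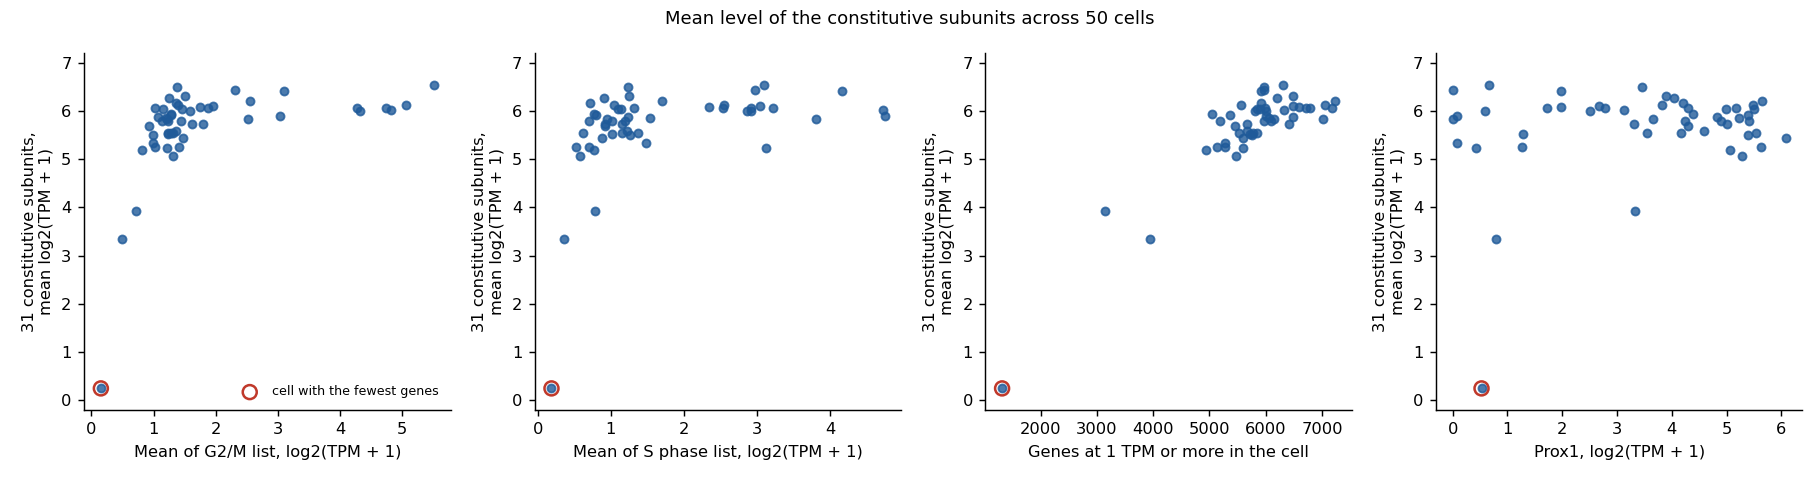
Mean log2(TPM + 1) of the 31 constitutive subunits (y axis) in 50 cells against the G2/M list mean, the S phase list mean, the number of genes seen and Prox1 (x axes, left to right), with the cell with the fewest genes (1316) ringed. Apart from 3 low cells the constitutive mean spans a narrow range, and cells with high G2/M means sit at its upper end beside many cells with low G2/M means.

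Gene by gene, 10 of the 31 constitutive subunits were past 0.3 with G2/M (32.3%), against 16.3% of all genes tested, and 8 with S phase (25.8%), against 15%. Those past it with G2/M were Psma6, Psma7, Psmb2, Psmb5, Psmc1, Psmc2, Psmc4, Psmc5, Psmd1 and Psmd7, and Psma6, Psmc1, Psmc4, Psmc5 and Psmd7 were also past it with S phase, beside Psmb4, Psmd2 and Psmd6. Past -0.3 there were 0 with either, against 1.25% of all genes for G2/M and 0.862% for S phase. Their median rho was 0.23 with G2/M and 0.18 with S phase, against 0.11 and 0.11 for all genes. Without the cell with the fewest genes the counts were 5 with G2/M (16.1%, against 13.3% of all genes) and 3 with S phase (9.68%, against 12.2%). The median rho was then 0.18 with G2/M, against 0.08 for all genes, and 0.13 with S phase, against 0.07. With genes per cell held constant, 1 subunit was past 0.3 with each (3.23%, against 7.46% and 6.23%), and the medians were 0.12 with G2/M, against 0.01 for all genes, and 0.03 with S phase, against 0.00.

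Psmc5, an ATPase of the regulatory particle, followed G2/M most closely, with a rho of 0.49 (0.30 and 0.44 in the i7 groups, 0.64 and 0.40 in the i5 groups) and a partial rho of 0.39 given genes per cell. Psmb5 had 0.41 with G2/M but 0.13 with S phase. With S phase the highest were Psmc1 at 0.41 and Psma6 at 0.39, and the lowest Psmb1 at -0.19. Psmd8 had the lowest with G2/M, -0.04.

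Outside the particle, the chaperone Psmg2, which assists assembly of the alpha ring together with Psmg1, had 0.45 with S phase and 0.44 with G2/M, positive in all 4 index groups (0.35 to 0.62 for S phase). Psmc3ip had 0.41 and 0.39. With genes per cell held constant, Psmg2 had 0.23 with S phase and 0.23 with G2/M, and Psmc3ip 0.28 and 0.25. Psmb8 had -0.21 with G2/M, or -0.42 with genes per cell held constant, and the immunoproteasome mean -0.14, or -0.30. Within index groups the value of the immunoproteasome mean, without that adjustment, was -0.14 and 0.02 by i7 and -0.32 and 0.11 by i5, so its sign differed between them. Of 19 proteasome-associated genes without a Psm name, Uchl5 (0.60) and Usp14 (0.49) had the highest rho with G2/M. They encode the 2 deubiquitinases that bind the regulatory particle. Both values are without adjustment for genes per cell, and 16.3% of all genes tested were past 0.3 with G2/M.

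**Figure D4:**
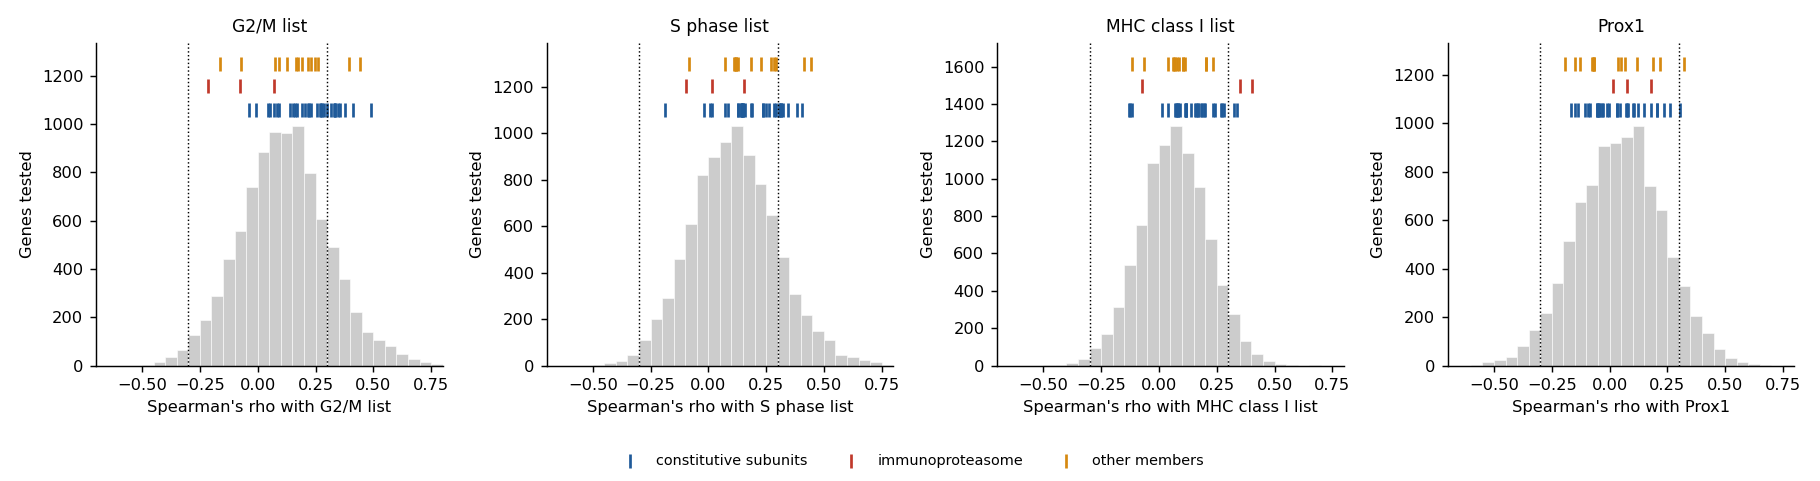
Number of genes tested (y axis, gray bars) by Spearman's rho over 50 cells (x axis) with the G2/M list mean, the S phase list mean, the MHC class I list mean and Prox1, with proteasome genes as ticks above the bars and dotted lines at -0.3 and 0.3. Constitutive subunits lie to the right of the bulk for G2/M (median 0.23 against 0.11 for all genes) and with the bulk for Prox1 (0.03 against 0.05).

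Prox1 is the transcription factor named in the title of the series together with quiescence of colon cancer stem cells. Its median was 14.7 TPM (0 to 66.8), and it was seen in 41 cells. It had negative values with cycling, at -0.39 with S phase and -0.23 with G2/M. The constitutive mean had a rho of -0.07 with Prox1, and the sign differed between index groups: -0.20 and 0.18 by i7, and -0.41 and 0.25 by i5. Pearson's r was 0.21. The core mean had -0.00 and the regulatory mean -0.08, and the immunoproteasome mean 0.13 (0.16 and -0.05 by i7).

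Of the constitutive subunits, Psma1 alone was past 0.3 with Prox1 (rho 0.31, or 1 of 31, against 8.59% of all genes tested), and none was past -0.3, against 3.26% of all genes. Psma1 was at 0.27 without the cell with the fewest genes. Of the other proteasome genes, Psme4 had 0.32, with 0.54 and -0.22 in the i7 groups. The lists on associated factors, ubiquitin, loading chaperones and regulators were also set against Prox1. Among their genes, the values farthest from 0 were -0.45 for Uchl5, 0.54 for Calr and 0.51 for Mafg. Mafg encodes a partner of NRF1 and NRF2 at the antioxidant response element. These values are the extremes of those lists, and values within index groups are not given for them.

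Constitutive subunits followed each other weakly from cell to cell. Over their 465 pairs the median rho was 0.16 and 16.1% were past 0.3, against 0.05 and 4.63% of all pairs of genes tested. Those pairs of all genes were not matched to the subunits for level. Without the cell with the fewest genes the median of the subunit pairs was 0.11, and no such value is given for all pairs. Pairs within the core had a median of 0.19 (91 pairs), within the regulatory particle 0.16 (136 pairs) and between them 0.14 (238 pairs). The chaperonin genes had 0.17 among themselves. Pairs of 1 of 2 immunoproteasome genes tested (Psmb8 and Psmb10) with a constitutive subunit had 0.07.

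The highest pairs among constitutive subunits were Psmc4 with Psmd14, Psma7 with Psmc1 and Psma1 with Psmb4, each at 0.48, and the lowest Psmb7 with Psmd13 at -0.28. Psme3 reached 0.52 with Psmc2 and 0.46 with Psmd14. Psmb10 followed the chaperone Psmd9 (0.40), Psma3 (0.38) and the catalytic Psmb5 (0.38), and Psmb8 was lowest with Psmc5 (-0.24). Averaged over the 14 and 17 genes, the core and regulatory means had a rho of 0.59, or 0.41 with genes per cell held constant.

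**Figure D5:**
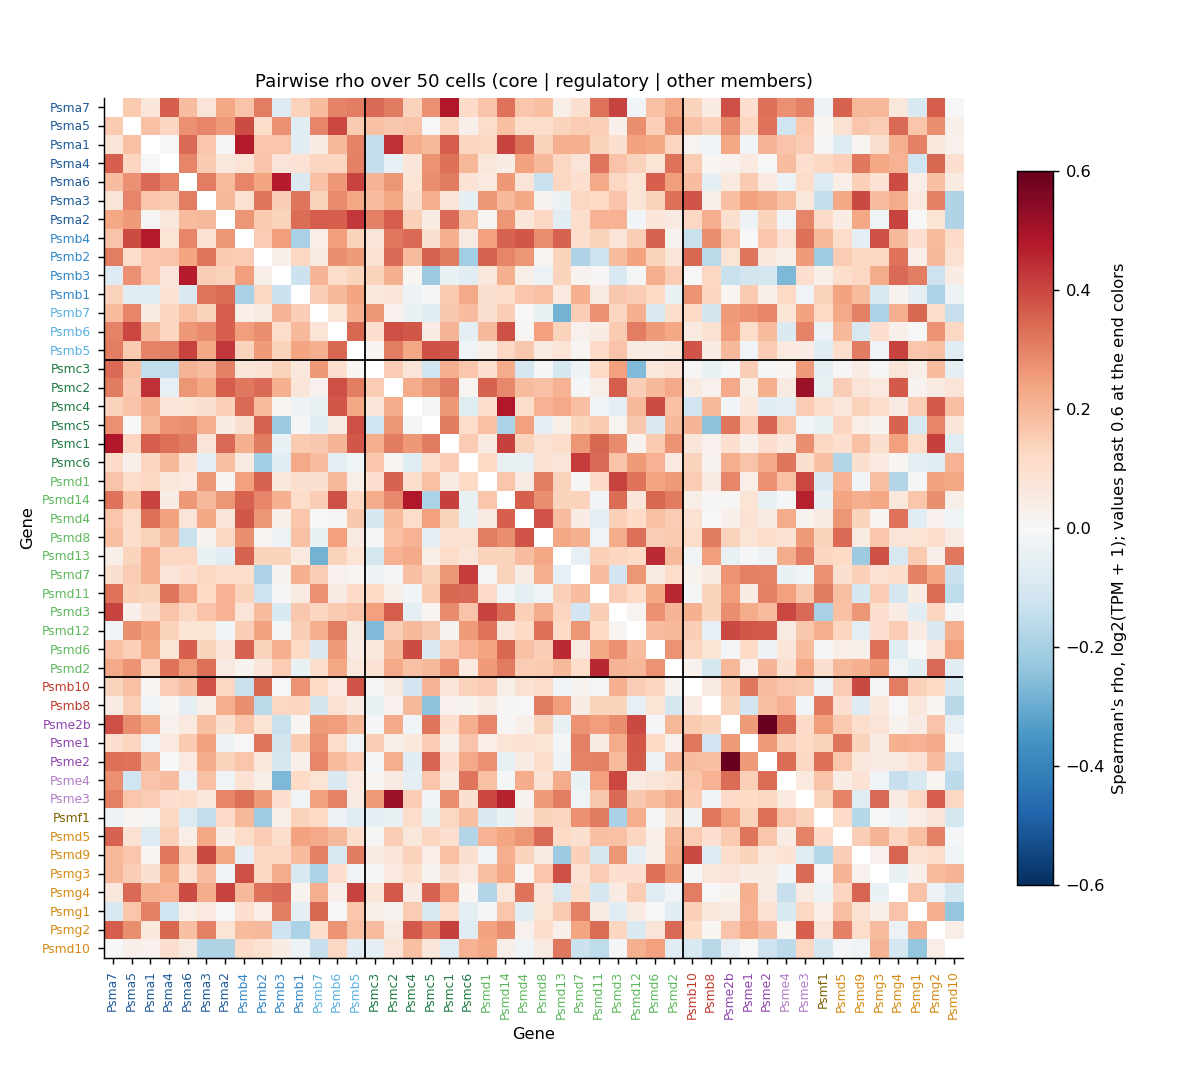
Spearman's rho on log2(TPM + 1) over 50 cells for each pair of 46 proteasome genes (both axes; label colors mark structural parts as in the plot of levels), with black lines after the core and after the regulatory subunits. Most pairs of constitutive subunits are weakly positive (median 0.16), and the darkest square is Psme2 with its copy Psme2b at 0.97.

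By the same measure, the 10 genes that followed the constitutive mean most closely, leaving out the subunits, had rho of 0.58 to 0.63: Ppia, a prolyl isomerase of the cytosol (0.63), Ptma, prothymosin (0.60), the phosphatase gene Dusp14 (0.60), Spdl1, a spindle checkpoint gene (0.59), the pseudogene BC002163 (0.59), Etfb (0.58), and the respiratory chain genes Cox7a2 (0.59), Ndufs5 (0.59), Ndufb9 (0.59) and Sdhb (0.58). They were chosen among genes of 1 sign in both i7 groups. Spdl1 was seen in 10 cells and Dusp14 in 18, with medians of 0 and 0.065 TPM, so most of their values lie near the floor. The 10 genes also had rho of 0.35 (Ndufb9) to 0.63 (Spdl1) with genes per cell. Genes with a rho of 0.3 or more with the mean made up 15.4% of all genes tested.

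Genes that act with the proteasome were set beside it from fixed lists. Of 19 proteasome-associated genes, all tested, 3 were past 0.3 with the constitutive mean, namely Uchl5 at 0.41, Usp14 at 0.32 and the thioredoxin-like protein Txnl1 at 0.30, and none was past -0.3, where 0.48% of all genes lay. Of the ubiquitin-conjugating enzymes, Ube2l3 had a rho of 0.49 and Ube2n 0.46. Of 9 tested genes that regulate proteasome genes, 3 were past 0.3: Nfe2l1, which encodes NRF1 (0.43), Keap1, the inhibitor of NRF2 (0.43), and Nfyc, a subunit of the CCAAT factor NF-Y (0.34). Nfe2l2, which encodes NRF2, had 0.22. The shares of 15.8% of the associated genes and 33.3% of the regulators stand beside the 15.4% of all genes. As a list mean, the regulators had a rho of 0.46 with the constitutive mean, or 0.18 with genes per cell held constant. The associated genes had 0.47, or 0.01 so adjusted, and the ubiquitin genes 0.36, or 0.24. The values of single genes in these lists are given without that adjustment. Ubb, a polyubiquitin gene, was in all 50 cells at a median of 13171 TPM and followed the constitutive mean weakly (0.14).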

How the data were processed

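TPM for 24410 Ensembl gene IDs in 56 single-cell libraries were deposited by the authors. The submitters' processing notes name RSEM 1.2.31, Bowtie2 2.2.9, bcl2fastq 1.8.4 and the build GRCm38.p4, without settings, annotation release or strand. Depth is lost in TPM, so no counting precision is known. RSEM shares reads among near-identical transcripts by estimate, which affects Psme2 and Psme2b.

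Columns were matched to samples by index pair. Symbols, coordinates and transcripts came from GENCODE M21 (GRCm38), and 24235 IDs had a symbol. Libraries with Pearson's r above 0.9 were averaged, leaving 50 cells. Levels were log2(TPM + 1), with list means, Spearman's rho and partial rho on ranks. A gene was seen at 1 TPM and tested if seen in 20% of cells. The rank correlation was checked on simulated data. Copies were sought with BLAST+ 2.17.0 at 90% identity over 300 bases: 16 proteasome genes had such a copy in the annotation, and 2, Psme2 and Psme2b, had it in the table. Promoters were RefSeq windows. No doublet caller was run, since cells were sorted singly.

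Proteasome genes and lists were chosen with earlier results of these data known. Genes to name were all proteasome genes, list members that a result turns on with the highest and lowest rho of a list, and the 10 other genes with the highest rho with the constitutive mean, of 1 sign in both i7 groups. Some list members were singled out after their values were seen. The lists fixed for cycling, MHC class I, interferon, associated factors, chaperonin and other cell types lacked Paaf1 and Cct6a, which were not used here. Results for some list members are not reported here. Alternatives are given in the closing section. Software was pandas 2.3.3, numpy 2.4.6, SciPy 1.17.1, matplotlib 3.10.9 and Biopython 1.88 under Python 3.11.15.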

Additional observations from a re-analysis of the deposited data

How the results depend on the processing

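Of 133 alternative values for 13 results, 93 stayed within 0.10 in rho or within 1.5 times in count, 40 moved further, and 0 were opposite in sign for a value past 0.3. Cells of 1 mouse, unknown depth and shared libraries limit all of them. No paired analysis was possible because all libraries belong to 1 group. Values for the constitutive mean with S phase (0.53), G2/M (0.64), the class I mean (0.24) and Prox1 (-0.07), and for the immunoproteasome mean with the class I mean (0.25), Prox1 (0.13) and the constitutive mean (0.09), moved as follows. With Pearson's r they were 0.38, 0.41, 0.45 and 0.21 for the constitutive mean, and 0.19 between the means. With genes per cell held constant they were 0.16, 0.37 and 0.0879 for S phase, G2/M and class I, and -0.0232 between the means. Within i7 N704 to N707, the constitutive mean had 0.11 with class I and -0.20 with Prox1, and the immunoproteasome mean 0.39 with class I. Within i7 N708 to N710, the constitutive mean had 0.34 with S phase, 0.42 with class I and 0.18 with Prox1, and the immunoproteasome mean 0.0041 with class I and -0.0539 with Prox1. Within i5 N502 to N505, the constitutive mean had 0.71 with S phase and -0.41 with Prox1, and the immunoproteasome mean 0.39 with class I. Within i5 N506 to N517, the constitutive mean had 0.34 with S phase, 0.35 with class I and 0.25 with Prox1, and the immunoproteasome mean 0.0647 with class I, -0.0186 with Prox1 and 0.19 with the constitutive mean. Using genes seen in 20% of cells only, which leaves out Psmb9, gave 0.14 for the immunoproteasome mean with class I. Alternatives chosen after the data were seen were summed TPM in place of means (0.18 with S phase, 0.34 with G2/M, 0.14 with Prox1, 0.19 between the means) and the mean of all genes tested held constant (0.30 with S phase, 0.49 with G2/M, 0.0431 with class I, -0.0713 between the means). Subunits past 0.3 with S phase numbered 3 without the cell with the fewest genes and 1 with genes per cell held constant, against 8. With G2/M they numbered 5 and 1, against 10. Rescaling TPM without ribosomal protein genes and Gm10925, also added later for levels, raised the median level of the constitutive subunits to 114 TPM, against 66.6 TPM. Beside the constructions named, the cause was not tested.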
